A study of Mus musculus with 2 samples.

Results

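Cytosolic sulfotransferases move a sulfate group onto small molecules such as phenols, catecholamines, steroids and drugs, which makes them more soluble in water and in many cases ends their activity. The sulfate comes from the donor PAPS (phosphoadenosine phosphosulfate), which PAPS synthases make from ATP and inorganic sulfate. In liver these enzymes are one of the main routes of conjugation, beside glucuronidation and glutathione transfer, and they are made mostly by hepatocytes. The genes described here are 8 cytosolic sulfotransferase genes, Sult1a1, Sult1b1, Sult1c2, Sult1d1, Sult1e1, Sult2b1, Sult3a1 and Sult5a1, and the PAPS synthase gene Papss2. They were chosen by name, with earlier results of these data known, and every probe set that the platform annotation gives to one of them was used. This found 13 probe sets for the 9 genes, out of 45101 probe sets and 18193 genes named singly on the array, and 0 probe sets that name a member together with another gene.

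RNA came from precancerous liver of mice with 2 genotypes. Pik3caTg;Kdm3aKO mice carried a hepatocyte-specific transgene of Pik3ca, the catalytic subunit of phosphoinositide 3-kinase, and lacked Kdm3a, a demethylase of histone H3 lysine 9. Pik3caTg;Kdm3aWT mice carried the same transgene with intact Kdm3a, so no liver without the transgene is compared here. Mice ate regular chow, and age, sex, the promoter of the transgene and whether the RNA on an array was pooled are not given in the labels used here. Each genotype had 1 Affymetrix array, so there is no replicate check, no test and no error between animals, and values describe these arrays. The question is how the sulfation genes stand in PI3K-activated liver with and without Kdm3a.

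Values are MAS5 signals, a linear brightness per probe set, and ratios are given as log2 of Kdm3aKO over Kdm3aWT. Signals under 46.5 are called below the floor. A probe set was measured if its mean over both arrays reached 73.7, and a gene takes the value of its measured probe set with the highest mean signal. A difference is counted when it is at least 2-fold. The log2 ratios of different probe sets of the same gene scattered with an SD of 0.447 over 4958 genes, which is the one error that can be had here and covers error within an array alone. Signals of different probe sets are not on a shared scale, so levels are compared between arrays and not between genes. Kdm3a, read by 1 measured probe set, had a signal of 61.6 in the Kdm3aKO array and 719.9 in the Kdm3aWT array. Its position relative to the deletion is not known here.

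Of the 9 genes, 6 were measured, and all 6 had a higher signal in the Kdm3aKO array, or 5 of 6 after loess or scaling on the hybridisation controls or hepatocyte markers, where Sult5a1 turned. Sult1b1, Papss2 and Sult1d1 were at least 2-fold higher, 0 were at least 2-fold lower, and Sult1a1, Sult1c2 and Sult5a1 lay within 2-fold. Of all 11693 genes compared, 3.83% were at least 2-fold higher, 8.96% were at least 2-fold lower and 47.8% had a ratio above 0. The median log2 ratio of the 6 genes was 0.97, against -0.02 for all genes. Each of the 6 was above the measurement level of 73.7 on both arrays, so none was kept through its knockout signal alone. By probe set, 9 of the 13 were measured, 9 of those 9 had a ratio above 0 and 4 were at least 2-fold higher, against 49.1% and 4.43% of the 19800 measured probe sets that name 1 gene. None of the 9 was at least 2-fold lower, against 8.19% of the 19800.

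**Figure D1:**
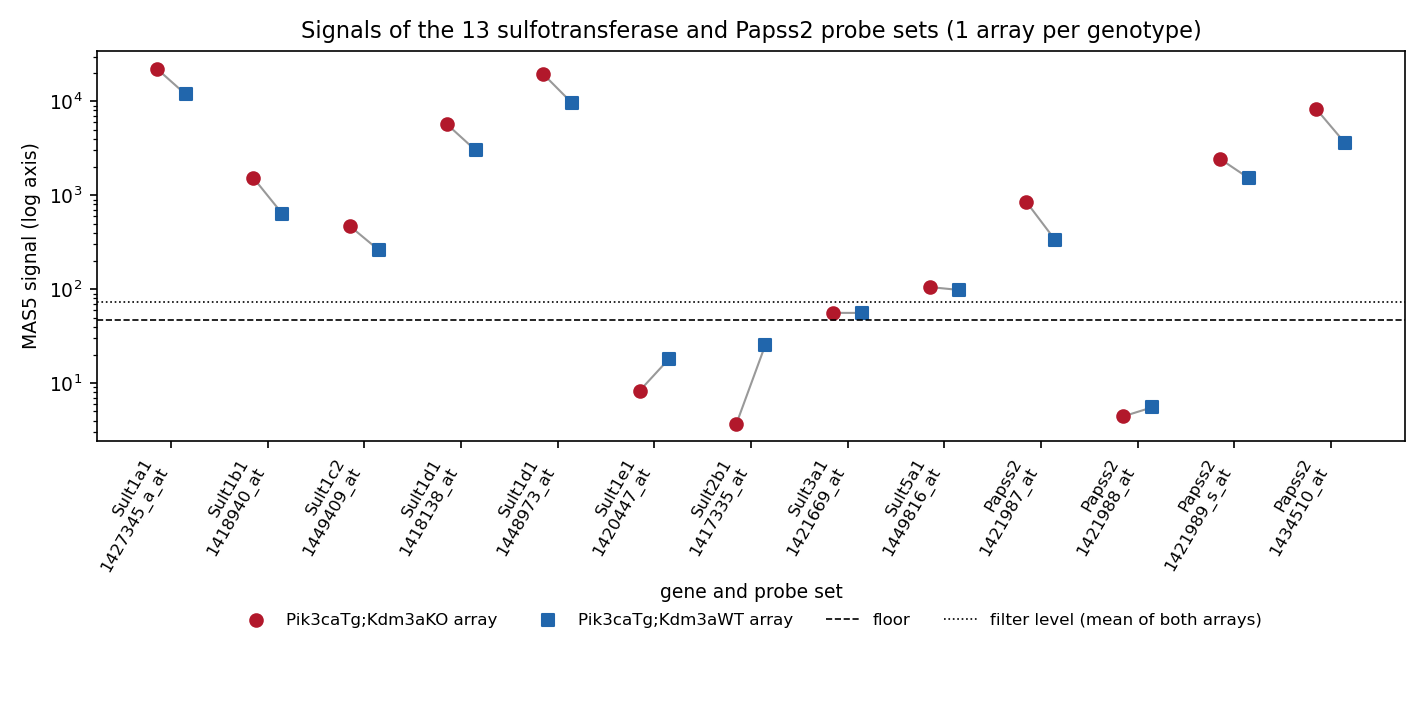
MAS5 signal on a log axis of each of the 13 probe sets, with the Pik3caTg;Kdm3aKO array as a circle and the Pik3caTg;Kdm3aWT array as a square, 1 array each. The 9 measured probe sets lie above the dotted filter level of 73.7 and have the circle above the square, Sult3a1 lies between the floor of 46.5 and the filter level, and 3 probe sets lie below the floor.

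Of the Sult1 family, which acts on phenols and amines, 4 of 5 members were measured. Sult1b1, which sulfates thyroid hormones and small phenols, had a signal of 1536 in the Kdm3aKO array and 637.1 in the Kdm3aWT array. The log2 ratio of 1.27, a 2.41-fold difference, was the highest of the members, and 223 of all genes compared had a higher one. Sult1d1, a catecholamine sulfotransferase in mouse, had 19542 in the Kdm3aKO array and 9548 in the Kdm3aWT array by its brighter probe set, a log2 ratio of 1.03. Its other probe set read 5758 in the Kdm3aKO array and 3018 in the Kdm3aWT array, a log2 ratio of 0.93. The probe sets of Sult1d1 therefore stood on either side of 2-fold while differing by less than the scatter between probe sets.

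Sult1a1, the main phenol sulfotransferase of liver and an enzyme of drug conjugation, had 22376 in the Kdm3aKO array and 11891 in the Kdm3aWT array. Its log2 ratio of 0.91 is just outside the 2-fold rule, as that of Sult1d1 is just inside it, and 95.3% of all genes had a lower ratio than Sult1a1. The Sult1a1 probe set has a name ending that marks several transcripts of a gene, and no second probe set was available to check it. Sult1c2, another member of the phenol family, had 469.6 in the Kdm3aKO array and 260.5 in the Kdm3aWT array, a log2 ratio of 0.85. Sult5a1 had 105.4 in the Kdm3aKO array and 98.4 in the Kdm3aWT array, a log2 ratio of 0.10, smaller than the scatter between probe sets. It was the measured member nearest to equal signals, and it was also the one nearest to the measurement level.

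The other 3 sulfotransferases gave no ratio that can be read. Sult1e1, the estrogen sulfotransferase, was below the floor on both arrays, with 8.34 in the Kdm3aKO array and 18.1 in the Kdm3aWT array. Sult2b1, which sulfates cholesterol and pregnenolone, was also below the floor on both, with 3.72 in the Kdm3aKO array and 25.8 in the Kdm3aWT array. No fold is given for these, since both values lie in the range where signals have no order. Sult3a1, an amine sulfotransferase that is known to be higher in female mouse liver, had 56.0 in the Kdm3aKO array and 56.0 in the Kdm3aWT array, above the floor but under the measurement level. The Y-linked gene Eif2s3y had signals of 2906 in the Kdm3aKO array and 2468 in the Kdm3aWT array. Uty, also Y-linked, had 812.5 in the Kdm3aKO array and 814.3 in the Kdm3aWT array. Kdm5d, also Y-linked, had 494.9 in the Kdm3aKO array and 459.4 in the Kdm3aWT array. Xist, which is made in female tissue, had 72.4 in the Kdm3aKO array and 83.0 in the Kdm3aWT array, close to the measurement level. All 4 of these genes were within 2-fold between the arrays.

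Papss2, the PAPS synthase that supplies the sulfate donor, had the most probe sets of the members, and 3 of its 4 were measured. The brightest read 8277 in the Kdm3aKO array and 3570 in the Kdm3aWT array, a log2 ratio of 1.21 or 2.32-fold. A second read 849.0 in the Kdm3aKO array and 331.6 in the Kdm3aWT array, a log2 ratio of 1.36. The third, whose name ending marks a probe set shared by transcripts, read 2456 in the Kdm3aKO array and 1524 in the Kdm3aWT array, a log2 ratio of 0.69. All 3 had the higher signal in the Kdm3aKO array, 2 of them past 2-fold. The fourth was below the floor on both arrays, at 4.43 in the Kdm3aKO array and 5.53 in the Kdm3aWT array, and which part of the transcript each probe set reads is not known here.

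**Figure D2:**
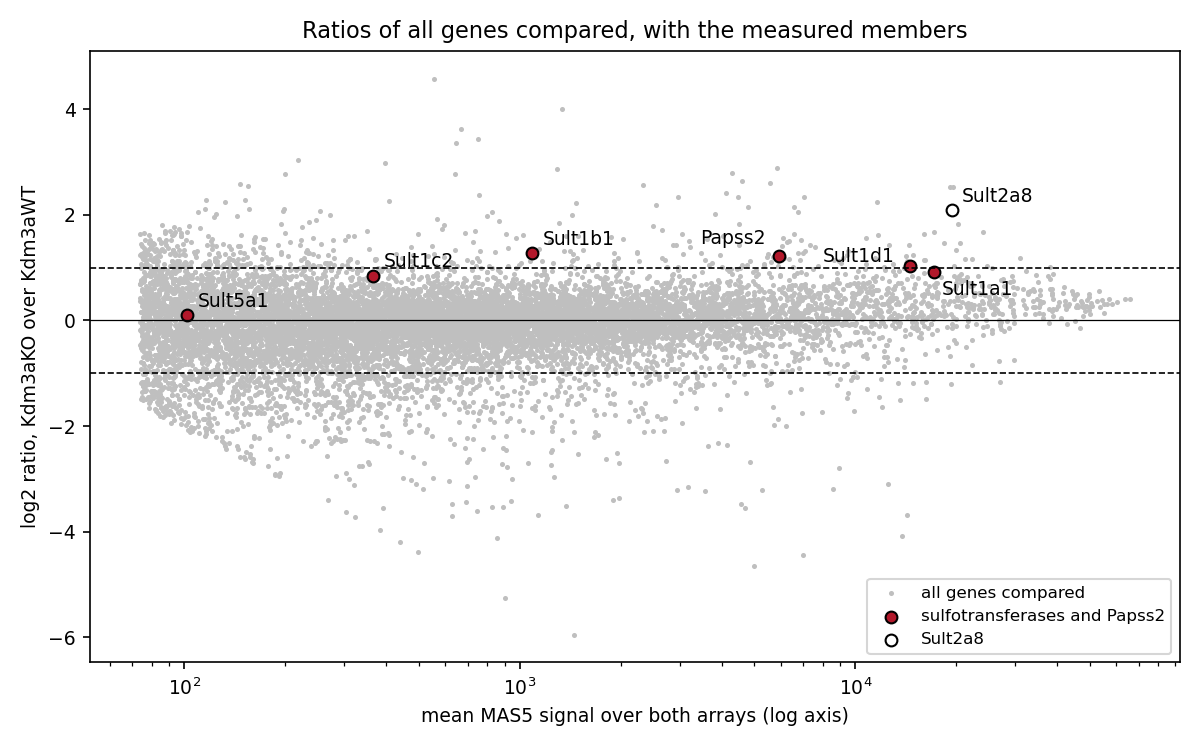
Log2 ratio of knockout over wild type against mean MAS5 signal on a log axis, with 1 grey point for each of the 11693 genes, filled circles for the 6 measured members and an open circle for Sult2a8. Dashed lines mark 2-fold. Sult1b1, Papss2 and Sult1d1 lie on or above the upper line and Sult5a1 lies near 0.

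The ratio of a gene moved with its signal on these arrays, which bears on the members because Sult1a1, Sult1d1 and Papss2 were in the top 20% of genes by mean signal. Among those 2339 genes the median log2 ratio was 0.12, 61.1% of genes had a ratio above 0, 4.49% were at least 2-fold higher and 4.4% were at least 2-fold lower. Among these bright genes, 94.7% had a lower ratio than Sult1a1, 95.9% had a lower ratio than Sult1d1 and 97.3% had a lower ratio than Papss2. After loess, which adjusts ratios along the signal, the log2 ratio was 0.72 for Sult1a1, 0.86 for Sult1d1 and 1.12 for Papss2. As deposited these were 0.91, 1.03 and 1.21. The part of signal in these ratios was not tested.

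Markers of cell types also differed between the arrays. All 10 measured hepatocyte markers had a higher signal in the Kdm3aKO array (9 after quantile normalization and 7 after loess), none was below the floor on both arrays, and their summed signal was 497345 in the Kdm3aKO array and 355366 in the Kdm3aWT array. Their median log2 ratio was 0.41, from 0.18 for Ahsg to 1.22 for the tyrosine aminotransferase Tat. Of the 10, 2 were at least 2-fold higher, against 3.83% of all genes. They were Tat and the tyrosine-degrading Hpd, which had 50886 in the Kdm3aKO array and 25381 in the Kdm3aWT array. With the hepatocyte median taken off, the log2 ratios were 0.86 for Sult1b1, 0.80 for Papss2, 0.62 for Sult1d1, 0.50 for Sult1a1, 0.44 for Sult1c2 and -0.31 for Sult5a1. On that scale, chosen after seeing the data, 0 members were 2-fold higher. Of the 10 markers, Tat, Hpd and Cps1 had the lowest Kdm3aWT signals and the highest ratios. The log2 ratio was 1.22 for Tat and 0.87 for Cps1. The markers brightest in the Kdm3aWT array had 0.40 (Apoa1), 0.31 (Ttr) and 0.27 (Alb). Whether marker ratios depended on brightness was not tested, so what is left after the median is not read as an excess over hepatocyte genes. Each of the 5 cholangiocyte markers measured was lower by 2-fold or more, against 8.96% of all genes. Their summed signal was 712.4 in the Kdm3aKO array and 4687 in the Kdm3aWT array. They were Cd24a (-3.40), Krt19 (-1.95), Epcam (-1.75, with a second probe set at -0.08), Krt7 (-1.67) and Sox9 (-1.06). Cd24a, with 328.4 in the Kdm3aKO array and 3472 in the Kdm3aWT array, made up most of the Kdm3aWT sum. In the Kdm3aKO array Krt7 (72.4), Krt19 (63.4) and Sox9 (73.1) were under the measurement level, so they were measured through their Kdm3aWT signal alone. The count of lower cholangiocyte markers was 2 with a floor at the 60th percentile or a filter at the 70th. It was 3 with probe sets left out by name ending. After poly-A control scaling or with the mean of measured probe sets it was 4, and under the other alternatives 5. Among 10 markers of stellate cells and fibroblasts, 7 were lower by 2-fold or more, against 8.96% of all genes. The 10 summed to 16134 in the Kdm3aKO array and 35716 in the Kdm3aWT array. The 7 were Col3a1 (-3.56), Col1a2 (-3.21), Acta2 (-2.13), Col1a1 (-1.90), Lum (-1.79), Des (-1.79) and Pdgfrb (-1.63). Des, with 63.2 in the Kdm3aKO array and 218.8 in the Kdm3aWT array, was also measured through its Kdm3aWT signal alone. The part of these markers in the sulfotransferase ratios was not tested, and in bulk liver a larger share of hepatocytes and more RNA per hepatocyte cannot be told apart. Other markers differed less as sums, which are weighted toward bright probe sets and can hide differences of single genes. The 10 macrophage markers summed to 24014 in the Kdm3aKO array and 28417 in the Kdm3aWT array, with 5 higher and 5 lower in the Kdm3aKO array. Cd163 (at least 23.9-fold), Marco and Timd4 were at least 2-fold higher. Each had a Kdm3aWT value below the floor and was measured through its Kdm3aKO signal alone. Trem2 (-2.38), Cd68 (-2.11) and Lyz2 (-1.23) were at least 2-fold lower. Of all genes, 3.83% were higher and 8.96% lower by this rule. The 8 endothelial markers, with Vwf lower, summed to 7565 in the Kdm3aKO array and 8170 in the Kdm3aWT array. The 4 markers of T, NK and B cells, with Nkg7 lower, summed to 342 in the Kdm3aKO array and 416 in the Kdm3aWT array.

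Sult1b1, Sult1d1 and Sult1e1 lie next to each other on chromosome 5, with no other protein-coding gene between them in RefSeq assembly GRCm38.p6. The cluster has the Ugt2a genes, which encode glucuronosyltransferases, on one side of it and the casein genes on the other. Within it, Sult1b1 and Sult1d1 were past 2-fold, and Sult1e1 was below the floor on both arrays. On chromosome 17, Sult1c2 was measured, while its neighbour Sult1c1 was below the floor on both arrays, with 21.5 in the Kdm3aKO array and 4.55 in the Kdm3aWT array.

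The sequences upstream of the start sites are shown for the chromosome 5 cluster, because its genes differ in whether they were measured, and for Papss2, the member read by the most probe sets. Sult1b1 and Papss2 have 2 annotated starts each, and both are shown. Each is the 250 bases before a start site in RefSeq, assembly GRCm38.p6, written 5′ to 3′ on the strand of the gene. Capitals mark matches on either strand to the nuclear receptor half-site AGGTCA or to AGTTCA, the half-site form known from elements of the receptors CAR and PXR.
Sult1b1, chr5:87538196-87538445, minus strand: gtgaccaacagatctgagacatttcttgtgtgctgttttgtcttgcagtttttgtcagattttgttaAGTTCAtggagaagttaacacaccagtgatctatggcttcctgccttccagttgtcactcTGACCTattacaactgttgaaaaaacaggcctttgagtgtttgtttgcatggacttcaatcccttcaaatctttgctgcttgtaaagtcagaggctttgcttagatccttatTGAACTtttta
Sult1b1, chr5:87536223-87536472, minus strand: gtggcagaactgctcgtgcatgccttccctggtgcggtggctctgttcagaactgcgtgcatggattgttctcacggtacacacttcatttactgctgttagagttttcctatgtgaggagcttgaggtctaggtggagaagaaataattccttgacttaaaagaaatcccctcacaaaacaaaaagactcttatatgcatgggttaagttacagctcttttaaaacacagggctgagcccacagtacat
Sult1d1, chr5:87569007-87569256, minus strand: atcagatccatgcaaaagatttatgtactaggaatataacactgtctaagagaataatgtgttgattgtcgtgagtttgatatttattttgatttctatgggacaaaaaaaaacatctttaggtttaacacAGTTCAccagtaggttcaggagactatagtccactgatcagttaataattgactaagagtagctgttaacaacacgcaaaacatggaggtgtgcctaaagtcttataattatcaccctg
Sult1e1, chr5:87591612-87591861, minus strand: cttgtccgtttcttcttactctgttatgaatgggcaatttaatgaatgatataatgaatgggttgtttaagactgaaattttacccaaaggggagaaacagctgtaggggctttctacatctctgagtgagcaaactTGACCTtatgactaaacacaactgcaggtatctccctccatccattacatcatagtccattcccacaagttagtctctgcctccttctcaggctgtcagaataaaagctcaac
Papss2, chr19:32595465-32595714, plus strand: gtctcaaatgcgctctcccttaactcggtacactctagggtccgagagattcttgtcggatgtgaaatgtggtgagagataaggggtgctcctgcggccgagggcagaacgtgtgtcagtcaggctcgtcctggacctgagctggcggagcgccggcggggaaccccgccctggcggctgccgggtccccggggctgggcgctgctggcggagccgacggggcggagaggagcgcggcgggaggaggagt
Papss2, chr19:32619755-32620004, plus strand: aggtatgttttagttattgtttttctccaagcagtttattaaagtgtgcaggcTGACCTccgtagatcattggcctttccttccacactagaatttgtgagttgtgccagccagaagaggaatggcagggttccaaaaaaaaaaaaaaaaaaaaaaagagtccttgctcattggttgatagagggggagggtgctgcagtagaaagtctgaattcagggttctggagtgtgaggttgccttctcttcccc

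The first Sult1b1 window holds AGTTCA at 178 to 183 bases before the start, the same letters on the opposite strand at 6 to 11 bases, and AGGTCA on the opposite strand at 118 to 123 bases. The second Sult1b1 window has no match to either. The Sult1d1 window holds AGTTCA at 114 to 119 bases before the start. The Sult1e1 window holds AGGTCA on the opposite strand at 108 to 113 bases. Of the Papss2 windows, the first has no match and the second holds AGGTCA on the opposite strand at 192 to 197 bases. Across the 12 windows of the 9 members, 3 held AGGTCA and 2 held AGTTCA, against 14.0% and 11.8% of 32851 windows of the same length over all genes. The same 12 windows held the AP-1 letters TGANTCA once, in a second start of Sult2b1 (6.75% of all windows), and neither TATAAA (12.4%) nor the E-box CACGTG (6.02%). The searched motifs do not overlap in the printed windows. These are letter matches in a short window and say nothing of binding.

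The wider family and the supply of sulfate were described from lists of genes, which were also written with earlier results of these data known. Of 14 other cytosolic sulfotransferases, 5 had a probe set of their own and 1 was measured. That one, Sult2a8, an enzyme of bile acid sulfation in mouse liver, had a signal of 31404 in the Kdm3aKO array and 7381 in the Kdm3aWT array. Its log2 ratio of 2.09, or 4.25-fold, was exceeded by 36 of the 11693 genes and was above that of every measured member. Sult2a8 has close relatives in a cluster on chromosome 7 that the same probes could read. Sult2a2, one of these relatives and a hydroxysteroid sulfotransferase, had 1.40 in the Kdm3aKO array, below the floor, and 90.2 in the Kdm3aWT array, so that it was at least 1.94-fold lower, but its mean was under the measurement level. Sult1c1, Sult4a1 and Sult6b1 were below the floor on both arrays by every probe set.

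Enzymes that make sulfate from cysteine and methionine had 4 of 10 measured genes at least 2-fold higher and 0 lower. Over all genes the shares were 3.83% and 8.96%. The median log2 ratio of these enzymes was 0.77. Got1, the cytosolic aspartate aminotransferase that also acts on cysteine sulfinate, had the highest ratio, with 9949 in the Kdm3aKO array and 3205 in the Kdm3aWT array (log2 ratio 1.63). Cth, the cystathionine lyase that makes cysteine, had 20818 in the Kdm3aKO array and 8869 in the Kdm3aWT array (1.23). Mpst, a sulfurtransferase, had 1367 in the Kdm3aKO array and 643.6 in the Kdm3aWT array (1.09). Suox, the sulfite oxidase that forms sulfate itself, had 3975 in the Kdm3aKO array and 1960 in the Kdm3aWT array (1.02). The lowest were Csad (-0.42), which directs cysteine sulfinate to taurine, and the persulfide dioxygenase Ethe1 (-0.30). Cdo1, the cysteine dioxygenase, had 42557 in the Kdm3aKO array and 28405 in the Kdm3aWT array, a log2 ratio of 0.58. With the arrays centred on their medians or scaled on the hybridisation controls, 2 of these genes were at least 2-fold higher, and 1 was with scaling on the hepatocyte markers.

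Genes of PAPS turnover and sulfate transport did not share this direction, with a median log2 ratio of -0.07 over 8 measured genes. Of these, 0 were at least 2-fold higher and 1 was lower, against 3.83% and 8.96% of all genes. Papss1, the other PAPS synthase, had 624.3 in the Kdm3aKO array and 694.6 in the Kdm3aWT array, a log2 ratio of -0.15, against 1.21 for Papss2. The phosphatases that clear the spent donor, Bpnt1 in the cytosol and Bpnt2 in the Golgi, had log2 ratios of -0.06 and -0.02, and the Golgi PAPS carriers Slc35b2 and Slc35b3 had -0.08 and -0.36, with a second probe set of Slc35b2 at -0.93. Slc26a1, a sulfate carrier of hepatocytes, had 1454 in the Kdm3aKO array and 786.5 in the Kdm3aWT array, a log2 ratio of 0.89, and its second probe set had 0.95. The anion exchanger Slc26a6 was the lower gene, at least 3.57-fold, with 34.5 in the Kdm3aKO array, below the floor, and 166.1 in the Kdm3aWT array. It was not counted as lower with a floor at the 60th percentile or a filter at the 70th.

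**Figure D3:**
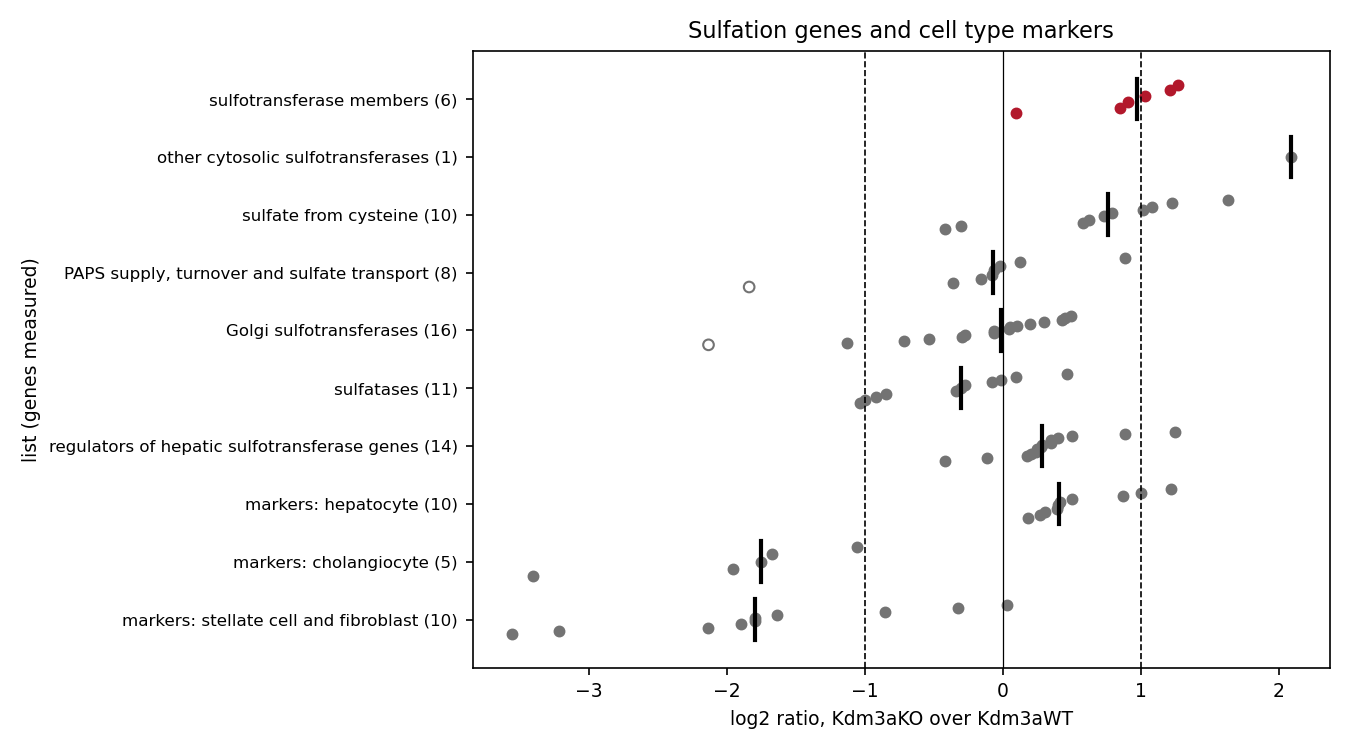
Log2 ratio of knockout over wild type for each measured gene of the members (top row) and of 9 other lists, with the number measured in brackets. Vertical bars are medians, dashed lines mark 2-fold and open circles are bounds with a value at the floor. The members and the sulfate-from-cysteine genes have medians of 0.97 and 0.77, and the PAPS turnover, Golgi sulfotransferase and sulfatase lists have medians from -0.30 to -0.01.

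Membrane-bound sulfotransferases of the Golgi, which sulfate glycans, lipids and tyrosines and use the same donor, had a median log2 ratio of -0.01 over 16 measured genes of 31 on the array. None was at least 2-fold higher and 2 were lower, both enzymes of chondroitin and dermatan sulfate: Chst14, at least 4.38-fold lower, and Chst11, with 54.7 in the Kdm3aKO array and 119.7 in the Kdm3aWT array (-1.13). With 8.96% of all genes lower, 2 of 16 is near the background, and the count was 0 with a floor at the 60th percentile or a filter at the 70th and 1 after poly-A control scaling. Chst7 (0.49) and Ndst2 (0.45) were highest. The sulfatases and their activators, which remove sulfate mostly in lysosomes, had a median of -0.30 over 11 measured genes. Of these 1 was at least 2-fold lower, Galns (-1.03), and Arsb, with 1057 in the Kdm3aKO array and 2108 in the Kdm3aWT array, was 1.99-fold lower. Beside the 8.96% of all genes lower, 1 of 11 is near the background too. Sulf2 (0.47) had the highest ratio, and its 3 probe sets spanned -0.41 to 0.47. The count of lower sulfatases was 4 when scaled on the hepatocyte markers and 0 after quantile normalization, loess or poly-A control scaling.

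Transcription factors known to control sulfotransferase genes in liver had a median log2 ratio of 0.28. Of 14 measured, 1 was at least 2-fold higher and 0 lower, against 3.83% and 8.96% of all genes, so this count is near the background. The higher one was Nr1i3, the xenobiotic receptor CAR, with 4322 in the Kdm3aKO array and 1819 in the Kdm3aWT array (1.25). With scaling on the hepatocyte markers it was within 2-fold, and its one probe set is among those left out by name ending. Esr1, the estrogen receptor, had 1835 in the Kdm3aKO array and 994.0 in the Kdm3aWT array (0.88), and the hepatocyte factor Hnf4a had 0.50, with probe sets from -0.33 to 0.80. Nr1i2, the receptor PXR, had 0.21. Nfe2l2, the oxidative stress factor NRF2, was lowest at -0.42 by its brighter probe set, and its other one stood at 0.15.

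The number of members past 2-fold depended on the scaling. As deposited, Sult1b1, Papss2 and Sult1d1 passed. After centring on array medians, quantile normalization, loess, scaling on the hybridisation controls, or with the mean of all measured probe sets, 2 passed, and 5 did when arrays were scaled on the poly-A controls. Over all processing alternatives the log2 ratio was 0.86 to 1.45 for Sult1b1, 0.80 to 1.40 for Papss2, 0.62 to 1.22 for Sult1d1, 0.50 to 1.10 for Sult1a1 and 0.44 to 1.03 for Sult1c2, so these 5 had the higher signal in the Kdm3aKO array under each alternative that gave them a value. Sult1a1 has no value when probe sets are left out by name ending, since that removes its one probe set. Sult5a1 ranged from -0.31 to 0.28 and had no settled direction. Among all genes the split between 448 higher and 1048 lower was 707 and 775 after poly-A control scaling, 307 and 1277 with scaling on the hybridisation controls, and 150 and 2066 with scaling on the hepatocyte markers.

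**Figure D4:**
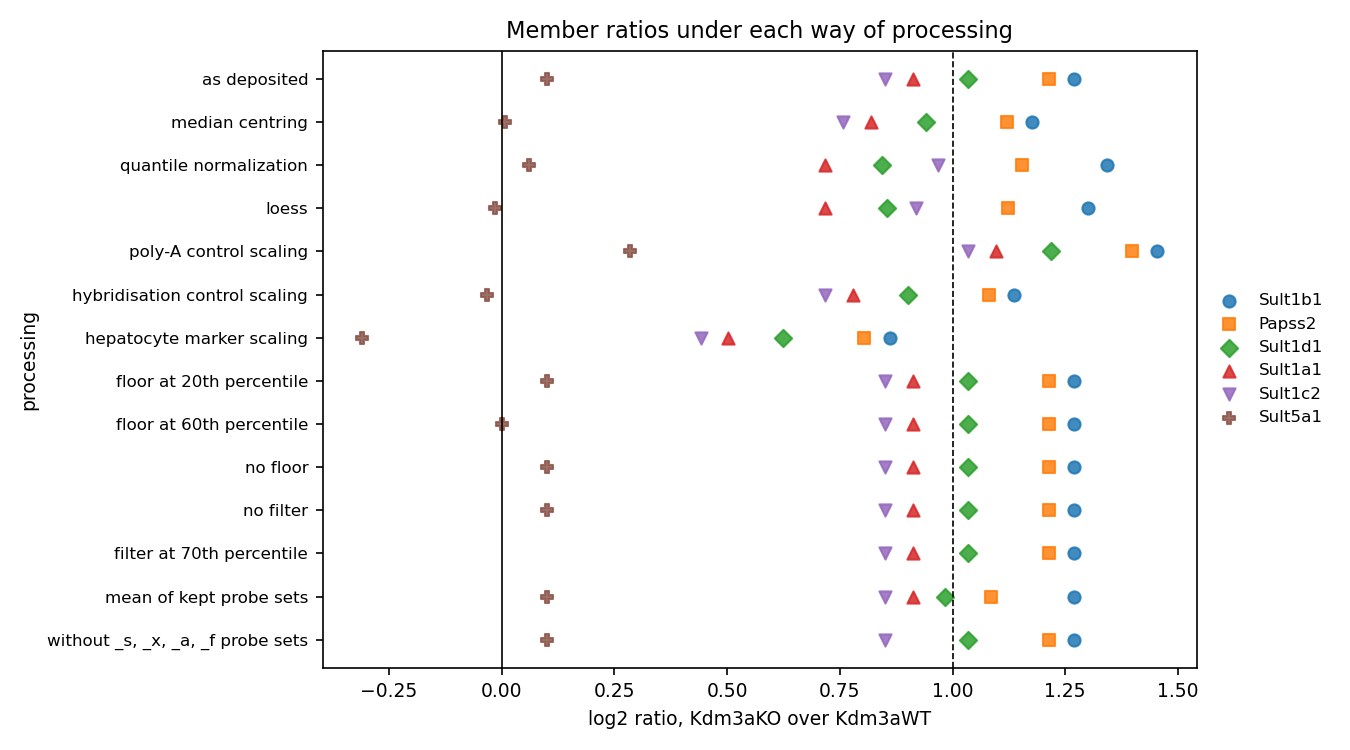
Log2 ratio of knockout over wild type of the 6 measured members under each way of processing, 1 row each, with the dashed line at 2-fold. Sult1b1 and Papss2 lie right of the line in every row but the hepatocyte marker scaling, Sult1d1 crosses it, and Sult5a1 stays between -0.31 and 0.28.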

How the data were processed

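Per the labels' protocols, total RNA of mouse liver was labelled with biotin by the standard Affymetrix procedure from 250 ng. The authors deposited linear intensity values per probe set. The submitters' processing notes name MAS5. The sources used here do not give its settings, the build or detection calls. Both arrays had the same mean of 500.004 once 2% of values were trimmed at each end, so the arrays had been scaled to a common level.

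Genes were named through the platform annotation, updated by gene identifier with RefSeq GRCm38.p6. Of 45101 probe sets, 34945 named 1 gene, 932 several and 9160 none, and 64 were controls. The floor of 46.5 was the 40th percentile of pooled signals, to which lower values were raised, and a ratio with 1 floored value is a bound. The filter of 73.7 was the median of mean signals. With 1 array per genotype there was no test, and the number of arrays limits the precision. The gene rule, the counting and the alternatives were run on simulated data, with a pass mark for the main processing alone. The planted changes were larger than 2-fold and the noise was smaller than the scatter between probe sets. The simulation therefore does not bear on counts near 2-fold.

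The members, gene lists and alternatives were chosen with earlier results of these data known. Named genes are all members, and of each list those past 2-fold and up to 4 of the highest and lowest ratios. The promoters shown were chosen after values were seen. Alternatives were other scalings, floors, filters, probe-set rules and fold sizes. Calculations used Python 3.11.15, pandas 2.3.3 and statsmodels 0.14.6.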

Additional observations from a re-analysis of the deposited data

How the results depend on the processing

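Of the 6 measured members, 3 were at least 2-fold higher as deposited, against 3.83% of all genes. The count was 5 after poly-A control scaling, 0 with scaling on the hepatocyte markers, which was chosen after seeing the data, 5 with a 1.5-fold rule and 0 with a 3-fold rule. Under the other alternatives it was 2 or 3. Measured members numbered 5 with a filter at the 70th percentile or with probe sets left out by name ending, and 9 without a filter. The count of lower members was 0 under all alternatives, and the members' median log2 ratio lay between 0.56 and 1.16, against 0.97 as deposited. Over all genes, 448 were higher, against 707 after poly-A control scaling, 150 with scaling on the hepatocyte markers, 250 with a floor at the 60th percentile, 210 with a filter at the 70th percentile, 1296 at 1.5-fold and 102 at 3-fold. Lower genes numbered 1048, against 2066 with scaling on the hepatocyte markers, 564 with a filter at the 70th percentile, 2038 at 1.5-fold and 409 at 3-fold. The higher floor and filter leave less room or fewer genes to differ; each scaling took -0.18 (poly-A controls), 0.13 (hybridisation controls), 0.09 (medians) or 0.41 (hepatocyte markers) off every log2 ratio. Probe sets near the floor, those of Sult5a1 and Sult3a1 among the members, are limited by signal over background. No array can be left out, and no paired analysis was possible because each genotype has 1 array.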

Other observations

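Genes with a known sex bias in mouse liver were set beside the members, because Sult3a1 and Sult2a2 are known to be higher in females. Of 8 measured male-biased genes, 6 were past 2-fold on the higher side in the Kdm3aKO array and 0 on the lower side. Of all genes, 3.83% were on the higher side and 8.96% on the lower side. The median log2 ratio of the male-biased genes was 1.85. Under other scalings, floors, filters and probe-set rules, 4 to 6 of them were higher. With scaling on the hepatocyte markers, 4 were higher and 1 was lower. Elovl3, a fatty acid elongase, had 2274 in the Kdm3aKO array and 313.4 in the Kdm3aWT array, and the oxysterol hydroxylase Cyp7b1 had 10828 in the Kdm3aKO array and 2623 in the Kdm3aWT array. The others were the organic anion carrier Slco1a1 (2.37), Susd4 (2.07), Cyp2u1 (at least 3.14-fold, with the Kdm3aWT value below the floor) and Nudt7 (1.09, with probe sets from -0.75 to 1.09). Cyp2u1 had 146.0 in the Kdm3aKO array and 5.90 in the Kdm3aWT array. It was measured through its Kdm3aKO signal alone, so the filter fixed its direction. Cyp4a12a, a fatty acid hydroxylase of male liver, went the other way, with 3556 in the Kdm3aKO array and 6379 in the Kdm3aWT array (-0.84). Of 11 measured female-biased genes, 3 were past 2-fold on the higher side and 0 on the lower side, against 3.83% and 8.96% of all genes. Their median was 0.33, and 2 or 3 were higher under other scalings, floors, filters and probe-set rules. The higher ones were Hamp2 (2.57), Cyp2b10 (1.98), which is also a known target of CAR, and Tox (1.40, with probe sets from 0.42 to 1.40).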
